A study of Mus musculus with 2 samples.

Results

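The genes described here encode the matrix metalloproteases (Mmp), their tissue inhibitors (Timp), the membrane proteases of the ADAM family (Adam), the secreted ADAMTS proteases (Adamts) and the ADAMTS-like proteins (Adamtsl). Members were all probes whose platform annotation gave 1 gene symbol made of Mmp, Timp, Adamts or Adamtsl and a number, or of Adam, a number and at most a letter. That gave 150 probes for 76 of the 19057 genes named on the array: 19 Mmp, 4 Timp, 32 Adam, 17 Adamts and 4 Adamtsl genes. The rule used names alone and no measured value.

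The arrays compared RNA of all cells dissociated from mouse hearts at E11.5 with RNA of the epicardial cells isolated from them as lacZ-positive, by 1 Illumina bead array for each sample. The mice of both samples carried the Tcf21lacZ allele, with lacZ at the locus of the epicardial transcription factor gene Tcf21, and were of mixed strain (C57BL/6, 129 and CD-1). The labels give neither the number of hearts pooled nor the number of copies of the allele. Because each group has 1 array, no difference below has a test, a p-value or a replicate check, and the sizes given describe these 2 arrays.

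Matrix metalloproteases are zinc enzymes that cut collagens, laminins and other matrix proteins, and most are made as inactive precursors. TIMPs bind and block their active site. ADAMs sit in the cell membrane, where the catalytic ones release growth factors and receptors from the cell surface, while ADAMTS enzymes are secreted and include the main proteases of the proteoglycan versican. In the embryonic heart, the matrix beneath the epicardium and in the endocardial cushions is built up and broken down while epicardial cells move into the heart wall.

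On an array of this kind the brightness of the beads that carry a probe measures the amount of the matching RNA. A probe was taken as detected where its detection p-value was under 0.01, meaning that few negative control probes were as bright. The log2 ratio is the normalized log2 signal of the lacZ-positive array minus that of the total heart array, so values above 0 are higher in the lacZ-positive sample. The error beside it is the standard error over beads (bead SE), which does not cover the spread between animals, isolations or hybridisations. As a second measure of spread, the 2 brightest detected probes of a gene gave log2 ratios with an SD of 0.29 per probe. This was taken over the 3529 genes with at least 2 probes detected on at least 1 array. It can hold differences between the transcripts that the probes read, and it also leaves out the spread between animals, isolations or hybridisations. Of 45281 probes, 34.3% were detected in total heart and 35.8% in the lacZ-positive sample, and the median number of beads per probe was 43.

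Of the 76 member genes, 31 had a probe detected on at least 1 array, where 9713 of all 19057 named genes did. The 31 were 8 Mmp, 3 Timp, 7 Adam, 9 Adamts and 4 Adamtsl genes. Among these 31, 24 were detected on both arrays, 6 on the lacZ-positive array only and 1, Adamtsl2, on the total heart array only. Of the 9713 analysed genes, 8775 had a probe detected on both arrays. The rest were not split by array, so the 6 and the 1 have no background share. Only Mmp23 was higher in the lacZ-positive sample by 2-fold or more, 1 of 31, or 3.23%, where 3.82% of all 9713 analysed genes were. No member was at least 2-fold lower, where 6.44% of all analysed genes were. The share past 2-fold was thus near the background. Within that range the members lay mostly on the higher side: 24 of 31 log2 ratios were above 0, or 77.4%, where 54.2% of all analysed genes were. The median was 0.53, against 0.044 for all analysed genes. With genes detected on 1 array at their bound it was 0.34, against 0.025 for all analysed genes. Members that were detected on 1 array only entered through the array on which they were brighter, so their direction was fixed by the filter. Of the 24 detected on both arrays, 18 were above 0, where 53.8% of genes detected on both arrays were. The median of these members was 0.51, against 0.037 for all genes detected on both. With no detection filter at all, 42 of the 76 members were above 0, where 50.4% of all genes were. The member median was then 0.024, against 0.0022 for all genes.

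**Figure D1:**
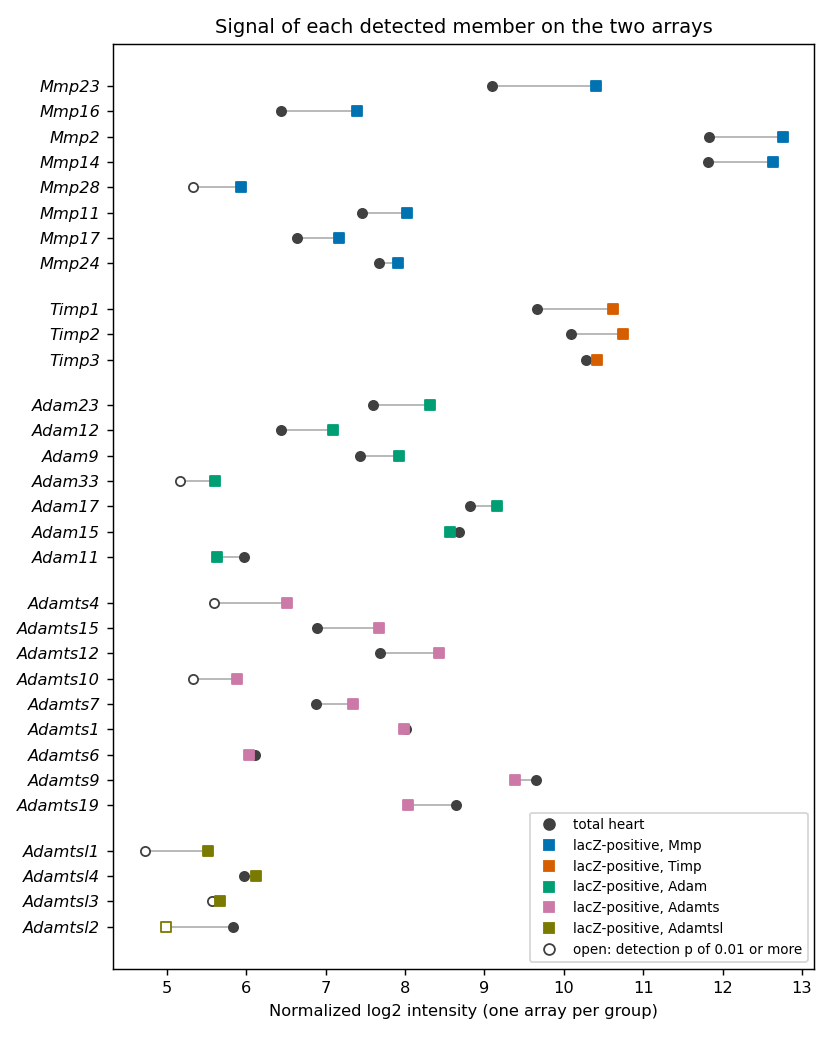
Normalized log2 intensity (x axis) of the 31 detected members on the total heart array (circles) and on the lacZ-positive array (squares, coloured by family), with open symbols where the probe was not detected on that array. All 8 Mmp genes and all 3 Timp genes have the square to the right of the circle, while the Adam, Adamts and Adamtsl genes have squares on both sides.

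These figures rest on how the arrays were scaled to each other. With no normalization between arrays the median log2 ratio of all analysed genes was 0.42 in place of 0.044. In that setting 11 of 31 members, or 35.5%, were at least 2-fold higher, where 10.5% of all analysed genes were, and 0 were at least 2-fold lower, where 3.92% were. With median scaling 10 members were at least 2-fold higher, where 8.42% of all analysed genes were. Set against the median of all genes under the same setting, the member median was 0.49 above it with quantile normalization and 0.44 above it with no normalization or with median scaling. It was 0.32 above with no background correction and 0.33 above with a larger offset of 50. With the values processed by the authors, to which 16 was added before log2, it was 0.27 above. The member median was 0.31 in that setting. Under the 6 scalings and background corrections tried, 23 members were above the median of all genes in every one and 7 were below it in every one. The remaining member, Adamtsl3, lay between -0.067 and 0.046 of it and was above it in 4 of the 6. These counts hold members whose direction the filter fixed. Mmp28, Adam33, Adamts4, Adamts10, Adamtsl1 and Adamtsl3 were detected on the lacZ-positive array only, and Adamtsl2 on the total heart array only. With quantile normalization and such members at their bound, 21 of the 31 were above the median of all genes. Of the 24 detected on both arrays, 18 were.

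**Figure D2:**
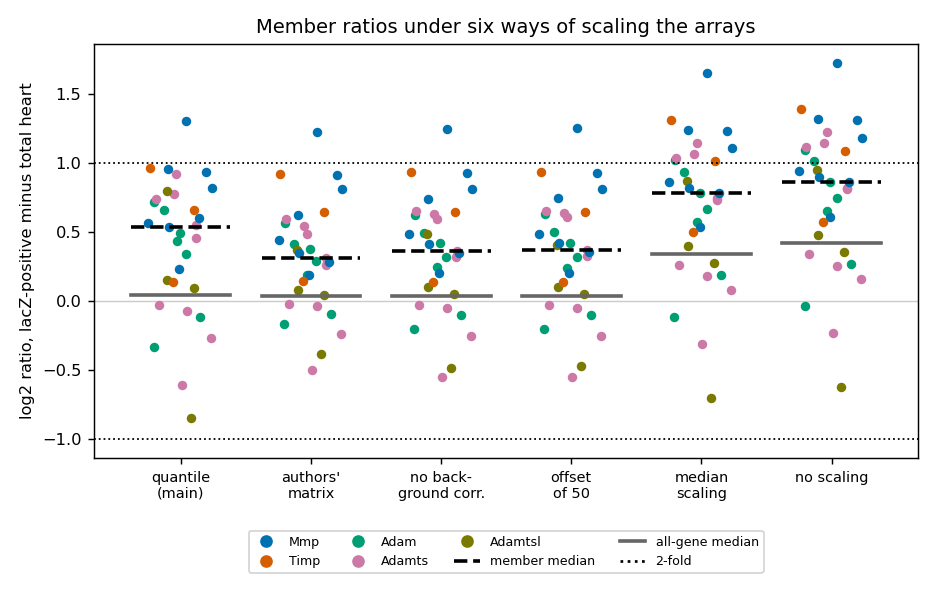
The log2 ratios (y axis) of the 31 detected members under 6 ways of background correction and scaling (x axis), coloured by family. The dashed line is the member median, the grey line the median of all analysed genes, and the dotted lines mark 2-fold. Both medians shift up together with median scaling and with no scaling, from 0.53 to 0.86 for the members and from 0.044 to 0.42 for all genes with no scaling.

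The 7 matrix metalloprotease genes detected on both arrays were all higher in the lacZ-positive sample under each of the 6 scalings. Their median log2 ratio was 0.82. Of genes detected on both arrays, 53.8% were above 0, and with no normalization 79.7% of all analysed genes were. Mmp28 entered through the lacZ-positive array only, so its direction was fixed by the filter. With it the median over 8 genes was 0.71, or 0.69 with Mmp28 at its bound. The 8 genes comprise 3 of secreted enzymes, Mmp2, Mmp11 and Mmp28, and 5 of enzymes anchored in the membrane, Mmp14, Mmp16, Mmp17, Mmp23 and Mmp24. The ratios of secreted and anchored enzymes overlapped.

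Mmp2 encodes gelatinase A, which cuts denatured collagen and the collagen of basement membranes. Its raw intensity was 3183 ± 91.2 (bead SE, 57 beads) on the total heart array and 7827 ± 214 (28 beads) on the lacZ-positive array. After normalization it was 1.91-fold higher in the lacZ-positive sample, with a log2 ratio of 0.93 ± 0.060. Mmp14 encodes the membrane-type enzyme that activates the precursor of Mmp2 at the cell surface. Its raw intensity was 3174 ± 86.4 (40 beads) in total heart and 7158 ± 260 (45 beads) in the lacZ-positive sample, and the log2 ratio was 0.82 ± 0.065. Enzyme and activator were thus higher by similar sizes, 1.91-fold and 1.76-fold, and 457 and 615 of the 9713 genes had a higher ratio.

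Mmp23, a transmembrane enzyme without the hemopexin domain of most family members, had the highest ratio of all members. Its raw intensity was 506 ± 16.9 (43 beads) in total heart and 1594 ± 55.3 (48 beads) in the lacZ-positive sample. The log2 ratio of 1.30 ± 0.075, or 2.46-fold, was exceeded by 165 of the 9713 genes, and it was between 1.22 and 1.72 under the 6 scalings. Mmp16, another membrane-type enzyme, stood at 110 ± 6.43 in total heart and 227 ± 11.1 in the lacZ-positive sample. Its log2 ratio was 0.95 ± 0.15, and a second probe of it, detected on the lacZ-positive array only, gave a bound of at least 1.56-fold higher. Mmp17, which is held in the membrane by a lipid anchor, had a log2 ratio of 0.53 ± 0.13. Mmp24, a membrane-type enzyme best known from the nervous system, was nearest to level, with raw intensities of 212 ± 8.49 and 308 ± 11.8 and a log2 ratio of 0.23 ± 0.090. The log2 ratios of Mmp23 and Mmp24 differed by 1.06, against a bead SE of 0.12 for that difference, a pair picked after the values were seen. Here and in the pairs below, the bead SE leaves out the spread between probes, an SD of 0.29 in log2 ratio per probe.

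Mmp11, or stromelysin-3, is activated inside the cell by furin before it is secreted. Its raw intensity was 187 ± 9.68 in total heart and 331 ± 16.3 in the lacZ-positive sample, for a log2 ratio of 0.56 ± 0.12. Mmp28, or epilysin, was not well above background in total heart, at 71.3 ± 3.74, and stood at 105 ± 5.97 in the lacZ-positive sample. It was therefore at least 1.22-fold higher, where the bound sets the brighter value against the lowest detected signal of the dim array or the probe's own value, whichever is higher.

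Of the inhibitors, Timp1 had the highest log2 ratio and Timp3, by its brightest probe, lay close to level. Timp1 encodes a secreted inhibitor that acts weakly on most membrane-type enzymes. Its raw intensity was 729 ± 19.9 (55 beads) in total heart and 1851 ± 65.4 (40 beads) in the lacZ-positive sample, giving a log2 ratio of 0.96 ± 0.067, or 1.95-fold. Its second probe read 678 and 1566, with a log2 ratio of 0.81 ± 0.079. Timp2, whose product blocks Mmp14 and also takes part in the activation of Mmp2, read 958 ± 38.4 and 1999 ± 75.4, with a log2 ratio of 0.66 ± 0.084.

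Timp3 encodes the inhibitor that stays bound to the matrix and also blocks Adam17 and several ADAMTS enzymes. It read 1089 ± 31.0 in total heart and 1607 ± 51.2 in the lacZ-positive sample, and its log2 ratio was 0.14 ± 0.064 by the brightest probe. Of its dimmer probes, both not detected in total heart, one was at least 1.32-fold higher and the other was too close to background for a fold. By the brightest probes Timp1 and Timp3 differed by 0.82 in log2 ratio, against a bead SE of 0.092 for that difference, a pair picked after the values were seen. With the mean over detected probes the log2 ratios were 0.89 for Timp1 and 0.42 for Timp3. Timp4 was not detected on either array.

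The promoters of Mmp14, Timp1, Timp2 and Mmp23 are shown because these genes were higher in the lacZ-positive sample and their starts were available, a choice that used their ratios. They come from RefSeq on GRCm38.p6, run 5′ to 3′ along the gene's own strand, and hold 250 bases before the annotated start and 50 after it. Of the 31 detected members, 17 had an entry, and Mmp2 was not among them. Those with an entry that are not shown include Mmp11, Mmp24, Mmp28 and Timp3. Capitals mark any match, on either strand, to TGANTCA (N for any base), TGAGTAA or AGGAAG (the PEA3 or Ets motif). They also mark GGGCGG (the GC box) and TATAAA (the TATA box). TGAGTAA is a form of the AP-1 site, and TGANTCA covers the usual letters of that site but also others. Mmp14 lies at chr14:54431348-54431647 on the plus strand, Timp1 at chrX:20869916-20870215 on the plus strand, Timp2 at chr11:118355362-118355661 on the minus strand and the Mmp23 start shown at chr4:155653241-155653540 on the minus strand.
Mmp14: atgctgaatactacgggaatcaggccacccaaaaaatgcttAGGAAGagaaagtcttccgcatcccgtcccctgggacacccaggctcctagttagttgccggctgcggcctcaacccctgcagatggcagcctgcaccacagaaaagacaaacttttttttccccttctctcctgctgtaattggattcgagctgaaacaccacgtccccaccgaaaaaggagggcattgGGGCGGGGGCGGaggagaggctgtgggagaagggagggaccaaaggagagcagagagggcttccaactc
Timp1: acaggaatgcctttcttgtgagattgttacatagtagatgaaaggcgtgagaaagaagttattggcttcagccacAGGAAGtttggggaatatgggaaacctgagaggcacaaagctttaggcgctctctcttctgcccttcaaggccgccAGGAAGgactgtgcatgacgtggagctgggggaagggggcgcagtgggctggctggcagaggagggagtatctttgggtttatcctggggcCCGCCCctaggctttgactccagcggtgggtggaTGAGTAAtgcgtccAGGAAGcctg
Timp2: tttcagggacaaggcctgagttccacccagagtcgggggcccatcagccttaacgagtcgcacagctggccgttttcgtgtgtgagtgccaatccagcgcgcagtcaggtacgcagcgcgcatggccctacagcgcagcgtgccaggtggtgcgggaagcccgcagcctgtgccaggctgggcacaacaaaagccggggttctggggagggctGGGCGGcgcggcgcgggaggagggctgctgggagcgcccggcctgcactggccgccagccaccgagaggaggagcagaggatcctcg
Mmp23: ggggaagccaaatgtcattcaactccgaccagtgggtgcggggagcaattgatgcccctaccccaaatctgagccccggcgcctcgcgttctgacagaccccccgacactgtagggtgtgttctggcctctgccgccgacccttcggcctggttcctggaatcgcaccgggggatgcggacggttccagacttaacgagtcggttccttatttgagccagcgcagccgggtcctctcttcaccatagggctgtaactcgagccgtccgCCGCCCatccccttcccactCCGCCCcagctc
The Timp1 window holds TGAGTAA from 27 to 33 bases after the annotated start, the only member window to hold it, where 2.68% of 32851 windows of the same length and 1.97% of the analysed genes did. Matches to TGANTCA, which is wider than the AP-1 site, were in 0 of the 17 member genes with a window. They were in 7.81% of all windows and 5.57% of the analysed genes. A gene was counted where any of its windows held the match. GC boxes were in 15 of the 17, or 88.2%, where 35.7% of all windows and 70.1% of the 7887 analysed genes with a window held one. AGGAAG was in 5 of 17, or 29.4%, where 35.4% of all windows and 36.6% of the analysed genes held it. TATAAA was in Adamts1 and Adamtsl2, 2 of 17, or 11.8%, where 13.6% of all windows and 9.13% of the analysed genes held it. The Mmp23 window that belongs to its other annotated start, 94 bases upstream, held none of these letters. These matches describe the letters in the windows and do not show binding.

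The 7 detected ADAM genes had a median log2 ratio of 0.43, with 5 above 0 and 2 below, and none past 2-fold. That median is the value of Adam33, which was detected on the lacZ-positive array only, and it was 0.34 with Adam33 at its bound. Of the 6 detected on both arrays, 4 were above 0, with a median of 0.41. Of the catalytic ones, Adam17 encodes the enzyme that sheds tumour necrosis factor and ligands of the epidermal growth factor receptor. It read 425 ± 17.1 in total heart and 691 ± 26.5 in the lacZ-positive sample, with a log2 ratio of 0.34 ± 0.090. Adam9, a widely expressed sheddase, read 185 ± 10.6 and 311 ± 16.9, with a log2 ratio of 0.49 ± 0.14. Adam12, or meltrin alpha, read 111 ± 4.74 and 191 ± 8.84, with a log2 ratio of 0.66 ± 0.12.

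Adam15, or metargidin, which carries an integrin-binding motif in the human protein, was level, with raw intensities of 391 ± 13.7 and 467 ± 25.8. Its log2 ratio of -0.11 ± 0.10 was 0.27 with no normalization between arrays and stayed below the median of all genes under all 6 scalings. Adam33 was not detected in total heart and only just detected in the lacZ-positive sample, at 90.7 ± 5.38, so no fold is given.

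The other 2 detected ADAM genes encode proteins without a working catalytic site, which act in adhesion and are best known from neurons. They lay on opposite sides. Adam23 read 203 ± 7.78 and 398 ± 12.8, the highest ratio of its family, at 0.71 ± 0.084 or 1.64-fold higher. Adam11 was dim on both arrays, at 90.0 ± 4.42 and 92.0 ± 3.79, with a log2 ratio of -0.33 ± 0.16. Between the 2 genes the log2 ratio differed by 1.05, against a bead SE of 0.18, a pair picked after the values were seen.

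**Figure D3:**
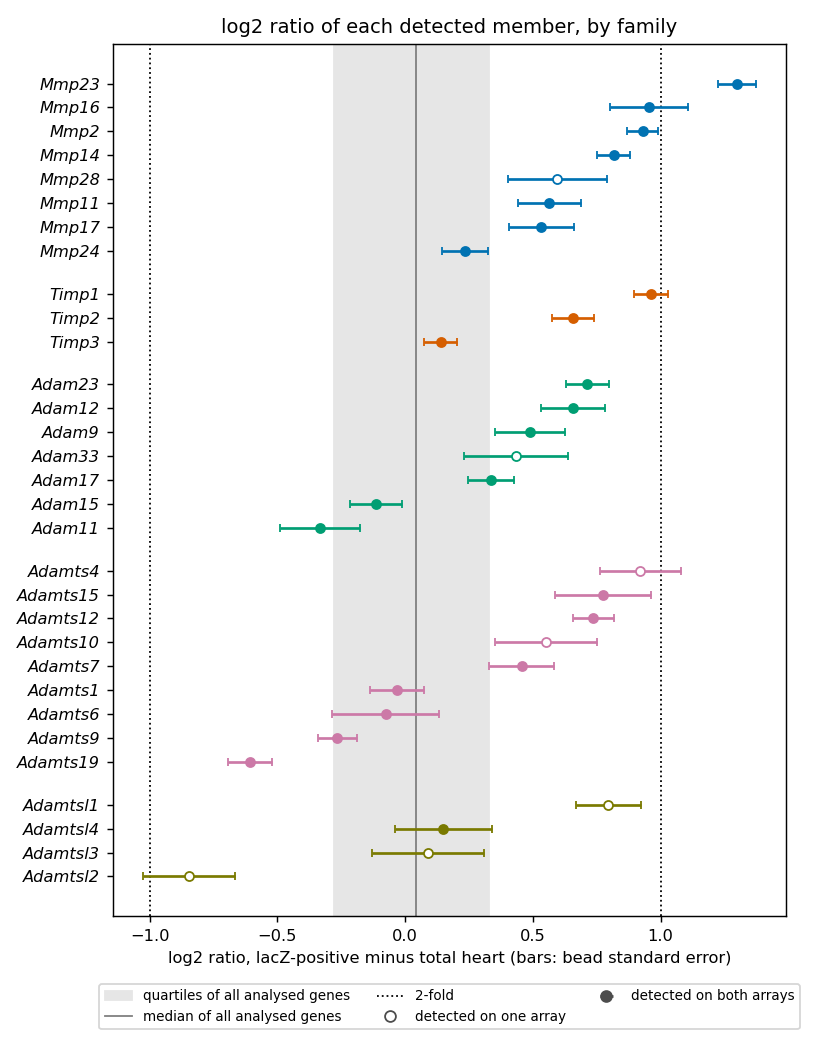
The log2 ratio of each detected member (x axis, lacZ-positive minus total heart, with the bead SE as bars), by family. Filled points were detected on both arrays and open points on one. The grey band runs from the lower to the upper quartile of the ratios of all analysed genes, and Mmp23 is the only point beyond the dotted 2-fold lines, at 1.30.

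ADAMTS genes spread to both sides: of the 7 detected on both arrays, 3 log2 ratios were above 0 and 4 below, from -0.61 to 0.77, with a median of -0.031. Of the 4 below, Adamts1, Adamts6 and Adamts9 turned above 0 with median scaling and with no normalization, while Adamts19 did not. All 4 stayed below the median of all genes under the 6 scalings. Adamts4 and Adamts10 passed detection on the lacZ-positive array alone, and with them the median over 9 genes was 0.46, or 0.24 with both at their bounds. The 4 genes whose products cut versican and other proteoglycans were themselves divided. Adamts4 was not detected in total heart, at 78.0 ± 3.67, and read 140 ± 7.01 in the lacZ-positive sample, so that it was at least 1.82-fold higher. Adamts15 read 139 ± 10.7 and 268 ± 18.2, with a log2 ratio of 0.77 ± 0.19.

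Adamts9, linked in the mouse to versican turnover in the developing heart, read 721 ± 24.7 in total heart and 804 ± 30.0 in the lacZ-positive sample. Its log2 ratio was -0.26 ± 0.076, and its other detected probe gave -0.19 ± 0.16. Adamts1, which cuts versican and aggrecan, read 260 ± 12.5 and 323 ± 13.7, with a log2 ratio of -0.031 ± 0.11. Its other probe, detected on the lacZ-positive array only, gave a bound of at least 1.23-fold higher. By their brightest probes both Adamts1 and Adamts9 turned above 0 with median scaling and with no normalization, and stayed below the median of all genes under all 6 scalings. The log2 ratios of Adamts15 and Adamts9 differed by 1.04, against a bead SE of 0.20, a pair picked after the values were seen.

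Adamts7 and Adamts12 encode a related pair of enzymes that cut the cartilage protein COMP. Adamts7 read 138 ± 6.54 and 221 ± 11.4, with a log2 ratio of 0.46 ± 0.13. Adamts12 read 214 ± 8.10 and 426 ± 13.6, with a log2 ratio of 0.74 ± 0.082, or 1.67-fold higher. A second Adamts12 probe gave the opposite sign. That probe, annotated to a cDNA other than a RefSeq mRNA, read 88.9 in total heart and 61.8, not detected, in the lacZ-positive sample, so that it was at least 1.36-fold lower. Which transcript it reads was not tested, and the mean measured log2 ratio over both probes was -0.23.

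Adamts19, known from heart valve disease in humans, had the lowest log2 ratio of the ADAMTS genes. It read 381 ± 11.7 in total heart and 333 ± 14.1 in the lacZ-positive sample, the only member detected on both arrays whose raw intensity was lower in the lacZ-positive sample. The log2 ratio was -0.61 ± 0.086, or 1.52-fold lower, and it lay below 0 under all 6 scalings. By the brighter Adamts12 probe, Adamts12 and Adamts19 differed by 1.35 in log2 ratio, against a bead SE of 0.12, a pair picked after the values were seen. With the mean over both Adamts12 probes the difference was 0.38. Adamts6 and Adamts10, a related pair whose products act on fibrillin microfibrils, stood at -0.076 ± 0.21 and at least 1.18-fold higher, the latter not detected in total heart.

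ADAMTS-like proteins lack the protease domain and sit on matrix fibres. All 4 genes on the array were detected, and all were dim, with raw intensities of 55.7 to 116. Adamtsl4 read 90.1 ± 5.79 and 116 ± 5.26, with a log2 ratio of 0.15 ± 0.19. Adamtsl2, whose product binds fibrillin, was detected in total heart, at 85.2 ± 4.63, and not in the lacZ-positive sample, at 70.0 ± 3.38, so that it was at least 1.26-fold lower. Adamtsl3 was detected in the lacZ-positive sample only. Its log2 ratio of 0.091 ± 0.22 lay within the bead SE, so no fold is given. Adamtsl1, at 55.7 ± 2.30 and 87.5 ± 3.78, was too close to background for a fold. Only Adamtsl4 was detected on both arrays, so the family median rests on bounds: it was 0.12 with measured values and 0.0087 with bounds.

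The other 45 members were not detected on either array, with raw intensities of at most 76.4 in total heart and 82.9 in the lacZ-positive sample, so that they have no ratio. Of these, 11 would have passed at a detection p-value under 0.05: Mmp9, Mmp19, Adam5, Adam8, Adam10, Adam22, Adam30, Adam32, Adamts13, Adamts17 and Adamts18. Among them, Adam10 encodes the main sheddase of Notch receptors and Mmp9 the gelatinase of neutrophils and macrophages. Not detected at that limit either were Mmp3, Mmp7, Mmp8, Mmp10, Mmp12, Mmp13, Mmp20, Mmp21, Mmp25 and Timp4. From the ADAMTS family these were Adamts3, Adamts8, Adamts14, Adamts16 and Adamts20. From the ADAM family they were Adam1b, Adam2, Adam3, Adam4, Adam6a, Adam6b, Adam7, Adam18, Adam20, Adam21, Adam24, Adam25, Adam26a, Adam26b, Adam28, Adam29, Adam34, Adam34l and Adam39. Many of these ADAM genes are known from the testis and epididymis, and none of the 7 male germ cell markers on the array, such as Prm1 and Tnp1, was detected. A probe that is not detected sets only a limit on its own signal.

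Genes that act with these families were listed by role, with earlier results of these data known. Of inhibitors and clearance receptors, 3 of 9 passed detection, with Lrp1 and Papln doing so on the lacZ-positive array only. Reck, a membrane-anchored inhibitor of Mmp2 and Mmp14, had a log2 ratio of 0.70 ± 0.069, and the endocytic receptor gene Lrp1 had a bound of at least 1.59-fold higher, as its probe was not detected in total heart. Among activators, 6 of 11 were detected, with a median of 0.37. Plat, which encodes tissue plasminogen activator, was 2.90-fold higher. Furin, which removes the propeptides of membrane-type enzymes and ADAMs, stood at 0.40 ± 0.060, and the related convertase gene Pcsk6 had the lowest value, -0.89 ± 0.088.

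Related zinc proteases and their helpers had 5 of 10 genes detected. All 5 were above 0, where 54.2% of all analysed genes were. Their median was 0.96, against 0.044 for all analysed genes. Pappa, which cuts binding proteins of insulin-like growth factors, was 3.34-fold higher, and Bmp1, which trims procollagens, 2.01-fold. Of ADAMTS substrates and cofactors, 7 of 10 were detected, with a median of 0.42. The versican gene Vcan stood at 0.42 ± 0.084 and Fbln1, whose product is a cofactor of Adamts1, at 0.88 ± 0.072, while Thsd4, an ADAMTS-like gene with another name, was 2.34-fold higher. The aggrecan gene Acan, not detected in the lacZ-positive sample, was at least 1.66-fold lower.

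Substrates of shedding had 12 of 19 genes detected, with a median of 0.074 that was 0.42 with no normalization and 0.0042 above the median of all genes in that setting. Sdc4, a syndecan gene, was 2.38-fold higher, Kitl was at least 1.58-fold higher and Egf at least 2.23-fold lower. Partners of ADAMs had 5 of 12 detected, with a median of -0.10 that was 0.27 with no normalization. Rhbdf1, an escort of Adam17, stood at 0.39 ± 0.059. Tspan33, a partner of Adam10 also known from red cell precursors, was 7.88-fold lower, and Lgi2, of the ligand family of Adam22 and Adam23, 2.04-fold lower.

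**Figure D4:**
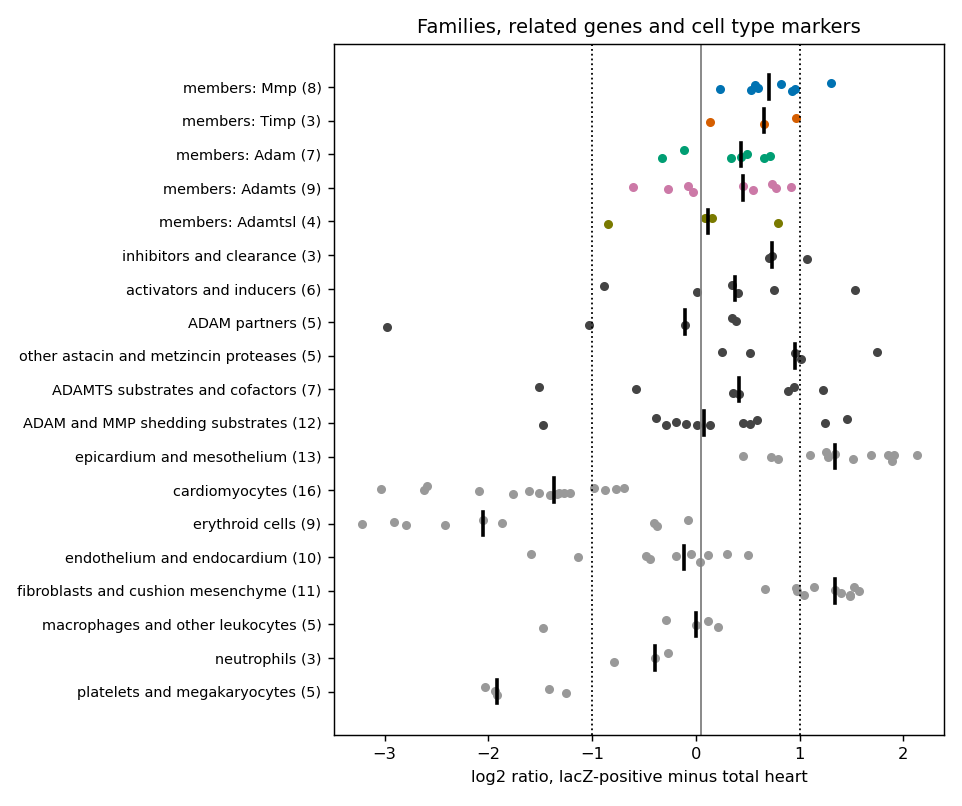
The log2 ratios (x axis) of the detected members by family (coloured), of related genes by role (dark grey) and of cell type markers (light grey), with the number of genes in brackets and the median as a black bar. The grey line is the median of all analysed genes and the dotted lines mark 2-fold. The Mmp and Timp medians, 0.71 and 0.66, lie between that line and the medians of the epicardial and the mesenchymal markers, 1.34 and 1.34.

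Cell type markers differed between the samples too. Of all 9713 analysed genes, 3.82% were at least 2-fold higher, 6.44% at least 2-fold lower and 54.2% above 0. The marker lists were chosen with earlier results of these data known. The array named 15 of the listed markers of epicardium and mesothelium, of which 13 passed detection and 10 were at least 2-fold higher, with a summed linear signal of 7106 in total heart and 21695 in the lacZ-positive sample. Tcf21 was among the 10, at 2.53-fold. As the cells were isolated by lacZ at its locus, it is no separate check of the isolation. Tbx18 and Msln were not detected. Of 12 markers of fibroblasts and cushion mesenchyme, 11 were detected and 8 were at least 2-fold higher, with sums of 11188 and 29473, and Postn was not detected. All 16 cardiomyocyte markers were detected and lower, with sums of 246228 and 107769. Of 10 erythroid markers, 9 were detected and all were lower, 6 of them at least 2-fold, with a median of -2.05, or -1.87 with bounds, and sums of 187208 and 126565 that hold the bright globin probes (with no normalization Hbb-y turned above 0), and Epb42 was not detected. Macrophage markers had 5 of 9 detected and a median of 0.0025 (0.34 with no normalization), with Adgre1, C1qa, Fcgr1 and Ptprc not detected, and neutrophil markers 3 of 8 and a median of -0.39 (-0.037 with no normalization, with Prtn3 above 0), with Elane, Ltf, Ngp, Camp and S100a9 not detected. Endothelial markers had 10 of 12 detected, with Erg and Kdr not detected, and a median of -0.12 that was 0.28 with no normalization, and platelet markers 5 of 5 and a median of -1.92 (-1.72 with bounds). The part of these shifts in the member ratios was not tested. In bulk RNA of this kind, fewer cells of a type and less RNA per cell cannot be told apart.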

How the data were processed

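Gene expression was measured on 1 Illumina mouse bead array per group. GenomeStudio was used by the authors, per the submitters' processing notes, with no version given. Per the file headers, the deposited table gave the mean intensity over beads, the bead standard error of that intensity, the count of beads and a detection p-value for each of 45281 probes. The intensity values were not scaled between arrays. Series matrix intensity values, processed by the authors in a way not given in the sources used here, served as an alternative. To these, too, 16 was added before log2. Symbols came from GEO's platform annotation: 34885 probes had 1 symbol, 18 had several and 10378 had none. All 76 member genes were found in the RefSeq gene table under the same symbol.

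Background was corrected with nec (limma 3.58.1, R 4.3.3) from the detection p-values, 16 was added, and arrays were quantile-normalized on the way to log2. A gene was analysed at a detection p-value under 0.01 on at least 1 array, by its detected probe with the highest mean signal. Bead errors were carried through the same curve. The steps were run on simulated data in which as many probes were raised as lowered. Such data cannot show which scaling suits these arrays, and no result here rests on them. Every detected member was named, undetected members were listed, and of other lists the genes past 2-fold or at the ends were taken as examples. Furin, Vcan and Fbln1 were added after their values were seen. Members and lists were chosen with earlier results of these data known. With 1 array per group no test was possible. The number of arrays limits the precision. Protein sequences were not used here.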

Additional observations from a re-analysis of the deposited data

Results flagged for a closer look

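Mmp1a, the mouse counterpart of interstitial collagenase, carries a letter after its number and so lay outside the naming rule, but 2 of its 3 probes gave signal above the negative controls. One read 78.2 in total heart and 93.0 in the lacZ-positive sample, detected only in the latter, with a log2 ratio of 0.066. The other read 88.1 and 90.5, detected on both arrays, with a log2 ratio of -0.32. The third probe was not detected on either array.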

How the results depend on the processing

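No paired analysis was possible because each group has 1 array, and no array could be left out. The count of members at least 2-fold higher was 1 under the detection, probe, bound and background alternatives, 11 with no normalization between arrays and 10 with median scaling; the count at least 2-fold lower was 0 in all of them. With no normalization the medians were 1.06 for Mmp, 1.09 for Timp, 0.74 for Adam and 0.81 for Adamts genes. With median scaling they were 0.98 for Mmp, 1.01 for Timp and 0.73 for Adamts genes. With no detection filter they were 0.11 for Mmp, 0.40 for Timp, 0.012 for Adam and -0.031 for Adamts genes, since undetected members then enter. The Adam median was 0.15 at a detection p-value under 0.05, where 13 Adam genes enter. The Adamts median was -0.031 with detection on both arrays, over 7 genes, and 0.14 with the mean over detected probes, where the second Adamts12 probe enters. Other medians moved by less than 2 bead SE. Of the 31 member ratios, 20 moved by more than that with no normalization and 4 with the authors' matrix values. With the mean over detected probes 2 did, Adamts12 and Timp3. For members detected on 1 array, a signal near background on the other leaves only a bound on the ratio.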
